A study of Mus musculus with 2 samples.

Results

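Mature β cells were described here as the insulin-led barcodes of mouse islets that were high in *Ucn3* and *Mafa*, low in the pancreatic polypeptide genes and low in stress genes. They were selected on their own RNA counts by fixed limits. A barcode belonged to them when *Ins1*+*Ins2* outnumbered *Gcg*, *Sst* and *Ppy*+*Pyy* and made up at least 20% of its unique molecular identifiers (UMIs, each of which counts 1 captured RNA molecule), with *Ppy*+*Pyy* under 1%, *Ucn3*+*Mafa* at 300 CPM or more and *Fos*+*Hspa1a* under 1000 CPM, where CPM is the number of UMIs of a gene per 1000000 UMIs. In all, 1505 barcodes met these limits, of 3609 insulin-led barcodes, 8897 barcodes kept after quality limits and 16215 in the series. The WT library held 859 of them and the *Npc1*-/- library 646.

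The samples were 2 droplet libraries of dispersed islet cells, 1 from WT mice and 1 from mice that lack *Npc1* in all tissues. Each library pooled the islets of 3 female mice aged 2 weeks, on a C57BL/6J background, and the WT mice were littermates from matings of heterozygotes. Animals within a library could not be separated, so differences between genotypes come without replicates and without p-values. Intervals are at 95% and allow for counting error alone, and the genotype cannot be told apart from the preparation of its library. The deposited counts summed to 114324626 UMIs in the WT library and 127122035 in the *Npc1*-/- library, of which the mature β cells held 27075618 and 20706540. The libraries shared 12 barcode sequences, and none of these was a mature β cell in both.

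Pancreatic β cells make and store insulin and release it when glucose enters the cell and is metabolised. After birth they pass through a period of maturation in which the transcription factor *Mafa* and the peptide hormone urocortin 3 (*Ucn3*) come on, while genes of the neonatal cell go down. *Npc1* encodes a membrane protein of the late endosome and lysosome that moves cholesterol out of these organelles. The study asked what loss of *Npc1* did to β cells.

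Mature β cells made up 47.6% (Clopper-Pearson interval 45.3 to 49.9) of the insulin-led barcodes in the WT library and 35.8% (33.6 to 38.1) in the *Npc1*-/- library. The ratio of the shares, *Npc1*-/- over WT, was 0.752 (0.678 to 0.834), and 0.815 (0.735 to 0.904) with all kept barcodes as the denominator. The share was also lower in the *Npc1*-/- library under each of the 10 other definitions of the mature β cells that were computed. The remaining insulin-led barcodes fell into 3 classes. Barcodes with *Ppy*+*Pyy* at 1% or more and *Fos*+*Hspa1a* under 1000 CPM, called PP-rich here, took 24.7% in the WT library and 44.2% in the *Npc1*-/- library. Barcodes with *Ppy*+*Pyy* under 1%, *Ucn3*+*Mafa* under 300 CPM and *Fos*+*Hspa1a* under 1000 CPM, called low-marker here, took 19.4% and 19.7%. Barcodes with *Fos*+*Hspa1a* at 1000 CPM or more took 8.31% (150 barcodes) and 0.333% (6 barcodes). The shares sum to a whole in each library, so a gain in 1 class lowers the others.

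**Figure D1:**
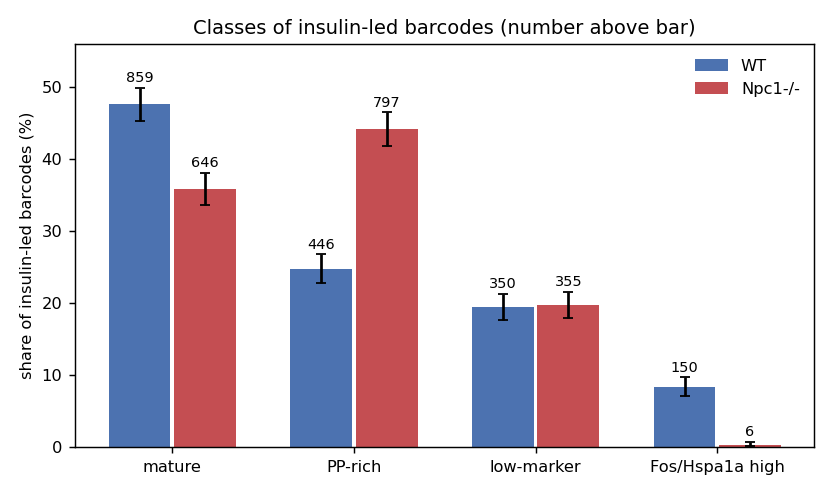
Share of insulin-led barcodes (y axis, %) in each of 4 classes, with 1 bar per library and Clopper-Pearson 95% intervals for counting error. Mature β cells were the most frequent class in the WT library (47.6%) and PP-rich cells in the *Npc1*-/- library (44.2%).

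The depth of the mature β cells was alike in the libraries. The median was 32095 UMIs and 4167 genes per barcode in the WT library and 32738.5 UMIs and 4357.5 genes in the *Npc1*-/- library. Insulin transcripts took a median of 54.8% and 54.0% of a barcode's UMIs, and mitochondrially encoded transcripts 4.57% and 4.92%. *Ucn3*+*Mafa* had a median of 547 and 545 CPM and a maximum of 1874 and 1729, values fixed at the lower end by the limit of 300. The stress genes *Fos*+*Hspa1a*, in contrast, had a median of 92.8 CPM in the WT library and 23.2 in the *Npc1*-/- library, although both lay far under their limit. A doublet caller marked 32 (3.73%) and 24 (3.72%) of the mature β cells.

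Most members carried both defining transcripts. *Ucn3* and *Mafa* were both detected in 839 WT and 631 *Npc1*-/- barcodes, *Ucn3* alone in 12 and 3, and *Mafa* alone in 8 and 12. The median barcode held 8 UMIs of *Ucn3* and 8 of *Mafa* in the WT library and 7.5 and 10 in the *Npc1*-/- library. The limit therefore rested on few molecules. Just inside it, at 300 to 350 CPM, lay 90 WT and 68 *Npc1*-/- barcodes with a mean of 10.3 and 10.7 UMIs of the 2 genes together. Just outside it, at 250 to 300 CPM, lay 86 and 65 barcodes with a mean of 8.99 and 8.25 UMIs. At the limit on *Ppy*+*Pyy*, 19 and 14 members held 0.9% to 1%, and 31 and 41 PP-rich barcodes held less than 1.1%.

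The label was checked against β cell markers that the rule did not use. *Slc2a2* encodes the glucose transporter GLUT2, and *Trpm5* a cation channel that depolarises the β cell. UMIs of *Slc2a2* were found in 98.8% of WT and 98.5% of *Npc1*-/- mature β cells, against 11.0% and 6.61% of endothelial cells of the same libraries. UMIs of *Trpm5* were found in 93.7% and 89.6%, against 4.03% and 2.42%. Endothelial barcodes were shallower, with a median of 7837 and 10373.5 UMIs. With each barcode thinned to 5000 UMIs (5 WT and 1 *Npc1*-/- mature β cells and 48 and 32 endothelial cells were left out as shallower), *Slc2a2* remained in 74.5% and 67.6% of mature β cells against 7.02% and 3.32% of endothelial cells, and *Trpm5* in 49.3% and 39.8% against 2.01% and 0.948%. Both are markers of β cells in general. *Slc2a2* had 302 and 261 CPM in mature against 249 and 230 CPM in low-marker cells, and *Trpm5* 152 and 113 CPM against 92.3 and 61.7 CPM.

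Markers of cells outside the endocrine lineage were low in the members, and the part of any other cell in the results was not tested. The 6 endothelial markers (*Pecam1*, *Cdh5*, *Flt1*, *Plvap*, *Kdr*, *Esm1*) summed to 26.5 CPM in WT and 20.2 CPM in *Npc1*-/- mature β cells, led by *Plvap*, and to 11108 and 12216 CPM in endothelial cells. The 3 T cell markers summed to 0.185 and 0 CPM, with all 3 at 0 in the *Npc1*-/- library, and the 2 neutrophil markers to 0.222 and 0 CPM. The 6 acinar markers summed to 10.5 and 17.7 CPM, led by *Ctrb1*, with *Pnlip* at 0 in both. The 3 duct markers summed to 10.4 and 15.1 CPM, led by *Spp1*, with *Sox9* at 0 in the *Npc1*-/- library. The 6 stellate and fibroblast markers summed to 14.4 and 32.3 CPM, with 49.2% of the *Npc1*-/- UMIs of *Rgs5* in 1 barcode. The 3 Schwann cell markers summed to 5.02 and 5.22 CPM. *Ghrl* of ghrelin cells had 1.14 and 1.84 CPM. Among the endocrine markers, *Gcg* led the 5 alpha cell genes (sum 2350 and 1594 CPM, against 1106 and 861 CPM in endothelial cells) and *Rbp4*, also a gene of immature β cells, led the 3 delta cell genes (sum 186 and 207 CPM, against 1539 and 583 CPM).

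A myeloid and a lymphoid gene led their lists. *C1qa*, a subunit of complement C1q that marks macrophages, had 25.6 and 45.6 CPM and was found in 43.1% and 61.8% of mature β cells, but in 2.24% and 1.98% of endothelial cells. The 5 macrophage markers summed to 26.3 and 46.3 CPM, so that *C1qa* made up nearly the whole sum and *C1qb*, *C1qc*, *Csf1r* and *Tyrobp* were at or near 0. *Cd79a*, a part of the B cell receptor and also listed here as a gene of immature β cells, led the 5 B cell markers (sum 34.4 and 20.3 CPM). It had 20.5 and 19.2 CPM and was found in 25.6% and 22.4% of mature β cells, but in 1.34% and 1.76% of endothelial cells. *Ighm* and *Ms4a1* were at 0 in the *Npc1*-/- library. In the WT library *Igkc*, an immunoglobulin light chain gene, was found in 61 members, with 38.2% of its UMIs in 1 barcode.

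In insulin-led barcodes with *Ppy*+*Pyy* under 1% and *Fos*+*Hspa1a* under 1000 CPM, other genes were followed along the *Ucn3*+*Mafa* level that chose the members. These levels are a description of what the rule separated. *Trpm5* went from 52.3 CPM in WT barcodes with under 100 CPM *Ucn3*+*Mafa* to 181 CPM in those with 1000 or more, and from 35.8 to 153 CPM in the *Npc1*-/- library. *G6pc2*, the islet glucose-6-phosphatase that sets the threshold for glucose, went from 274 to 448 CPM and from 222 to 455 CPM. *Ttc28*, a protein with tetratricopeptide repeats, went from 28.8 to 115 CPM and from 27.2 to 87.7 CPM. *Rbp4*, the plasma carrier of retinol, went the other way, from 478 to 60.6 CPM and from 564 to 94.5 CPM. *Pdx1*, a transcription factor that β cells need at all ages, differed less between the ends than these genes. It had 131 and 144 CPM at the ends in WT and 116 and 157 CPM in *Npc1*-/- barcodes. *Ppy*+*Pyy* fell along the same axis from 4918 to 767 CPM and from 5263 to 1241 CPM, so the limits of the rule were not independent of each other.

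**Figure D2:**
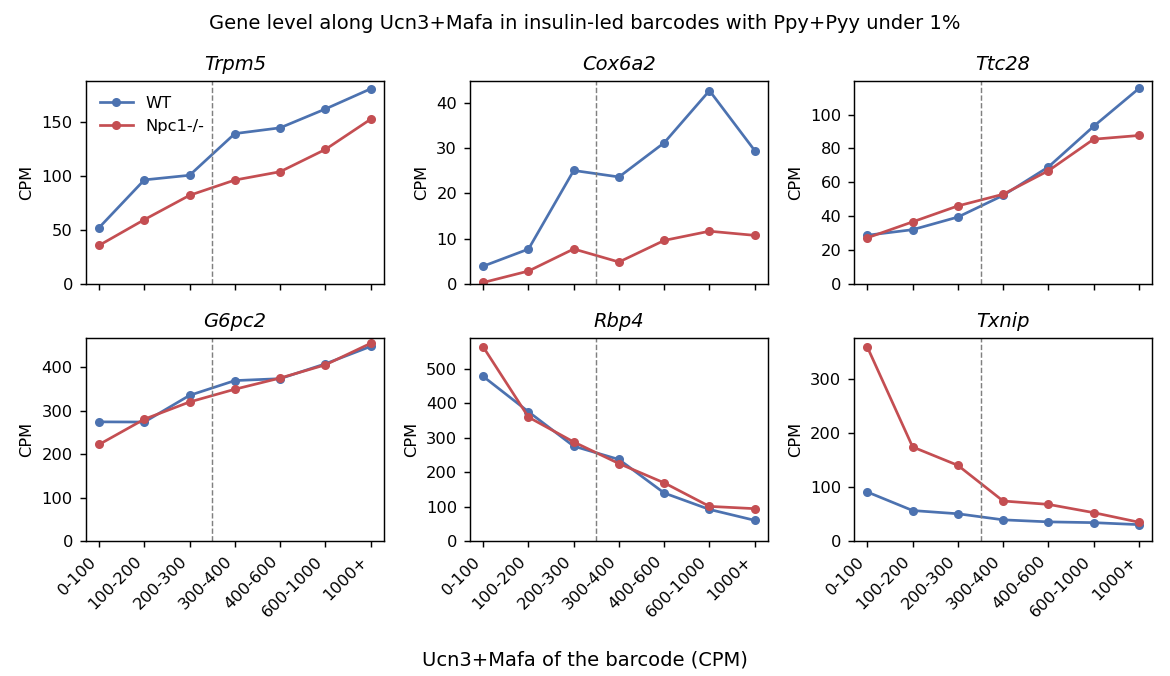
CPM of single genes (y axes) against *Ucn3*+*Mafa* of the barcode (x axis, CPM of the barcode, in 7 bins), with 1 line per library and the limit of 300 dashed. The barcodes are insulin-led, with *Ppy*+*Pyy* under 1% and *Fos*+*Hspa1a* under 1000 CPM. *Trpm5* was higher at the right end than at the left (181 against 52.3 CPM in WT) and *Rbp4* lower (60.6 against 478 CPM), and the *Npc1*-/- line of *Cox6a2* lay under the WT line in every bin.

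Genes that set the mature β cells apart from PP-rich β cells of the same library were taken as a description, since the rule had chosen both classes by their counts. Of 8631 genes tested, 153 (1.77%) were at least 1.5-fold higher and 212 (2.46%) at least 1.5-fold lower in mature β cells in both libraries. On plain CPM, without centring on the median gene, the counts were 88 and 392. Among the 12 highest at 20 CPM or more in one of the classes in both libraries were *Trpm5* (log2 ratio 1.58 in WT and 1.97 in *Npc1*-/-), *Ttc28* (1.62 and 1.48), *P2ry1*, a purinergic receptor for ADP (1.56 and 1.76), *Sytl4*, the granule protein granuphilin (1.43 and 1.44), *Gad1*, which makes GABA (1.26 and 1.82), and *Prss53*, a serine protease (1.30 and 1.54). Another was *Zc3h3* (1.68 and 1.57), which lies at chr15:75754430-75841915 on the minus strand (GRCm38), upstream of *Mafa* at chr15:75745490-75748228 on the same strand.

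The 12 lowest genes against PP-rich cells held several of the neonatal β cell. The membrane protein gene *Tspan8* had log2 ratios of -2.77 and -2.36. *Rbp4* had -2.72 and -2.37, with 140 CPM in WT mature against 1046 CPM in WT PP-rich β cells. *Ramp1*, a partner of the calcitonin receptor family, had -2.37 and -2.20. Of 14 immature and neonatal β cell genes tested, 10 were past 1.5-fold lower and none higher, with a median log2 ratio of -1.98 in WT and -1.89 in *Npc1*-/-. This list overlapped with what the rule selected. The 3 delta cell markers, of which *Rbp4* is one, summed to 7262 and 4326 CPM in PP-rich cells against 186 and 207 CPM in mature β cells, and the 5 alpha cell markers to 7659 and 4221 CPM against 2350 and 1594 CPM. Their part in the ratios was not tested.

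Parts of 3 groups of mature function were higher. Of 17 glucose sensing and metabolism genes, 3 were past 1.5-fold higher than in PP-rich cells (*Slc2a2*, *G6pc2* and the phosphatase inhibitor *Ppp1r1a*), of 23 ion channel genes 3 (*Trpm5*, *Cacna1c* and the calcium pump gene *Atp2a2*), and of 16 receptor genes 4 (*Glp1r*, the receptor of the incretin GLP-1, *Prlr*, the prolactin receptor, *P2ry1* and *Vipr1*). In the ion channel list 3 genes (*Kcnk3*, *Scn3a*, *Itpr1*) were past 1.5-fold lower. The median log2 ratio of the 13 mitochondrially encoded genes was 0.34 and 0.39, with no gene past 1.5-fold in both libraries.

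Against low-marker β cells, 45 of 8515 genes (0.528%) were past 1.5-fold higher and 241 (2.83%) past 1.5-fold lower in both libraries. The highest again held *Ttc28* (log2 1.18 in WT and 1.05 in *Npc1*-/-), *Zc3h3* (1.02 and 1.29), *Trpm5* (0.78 and 0.98) and *P2ry1* (0.74 and 0.90). The lowest were led by genes of dividing cells, such as *Stmn1*, which destabilises microtubules (-2.09 and -1.93), with the mitotic genes *Birc5*, *Top2a*, *Cdk1* and *Ube2c* also among the 12. Of 19 cell cycle genes, 10 were past 1.5-fold lower than in low-marker cells, with a median of -0.83 and -0.77. Dividing cells were not absent from the members. At least 1 UMI of the 5 proliferation markers (*Mki67*, *Top2a*, *Ube2c*, *Cdk1*, *Birc5*) was found in 140 WT (16.3%) and 92 *Npc1*-/- (14.2%) mature β cells, and 5 or more UMIs in 36 (4.19%) and 24 (3.72%).

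Variation among the mature β cells was measured after thinning each to 10000 UMIs, which kept 833 WT and 626 *Npc1*-/- barcodes and left out 26 and 20. The variance over the mean had a median of 1.07 over 1376 genes in each library, near the value of 1 that counting alone gives. The gene that varied most was *Gcg*, the glucagon gene, with 838 in the WT and 277 in the *Npc1*-/- library. The median member held 4 thinned UMIs of *Gcg* in both libraries and the highest 1734 and 888. The top 10% of members held 70.1% and 52.0% of all *Gcg* UMIs, and 1 barcode alone held 16.9% and 22.8% of the unthinned ones. *Gcg* took 0.0469% and 0.0439% of the UMIs of the median member, and 0.104% and 0.0818% of those of the median endothelial cell, at other depths (a median of 7837 and 10373.5 UMIs), and the source of these UMIs was not tested.

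Hormone genes and a small group of other transcripts followed *Gcg* in the ranking. *Ppy*, pancreatic polypeptide, had 60.8% and 58.2% of its UMIs in the top 10% of members. *Pyy*, peptide YY, had 44.3% and 41.1%, and both genes were cut off at the top by the limit of the rule. *Ins1*, *Ins2* and *Iapp*, the gene of amylin, ranked high with only 12.3%, 11.5% and 13.5% of their WT UMIs in the top 10%. *Nnat*, an imprinted gene of a small endoplasmic reticulum protein, was split among the members. It was detected in 49.6% of WT and 55.3% of *Npc1*-/- thinned barcodes, with 56.1% and 51.6% of its UMIs in the top 10% and up to 48 and 38 UMIs in 1 barcode.

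**Figure D3:**
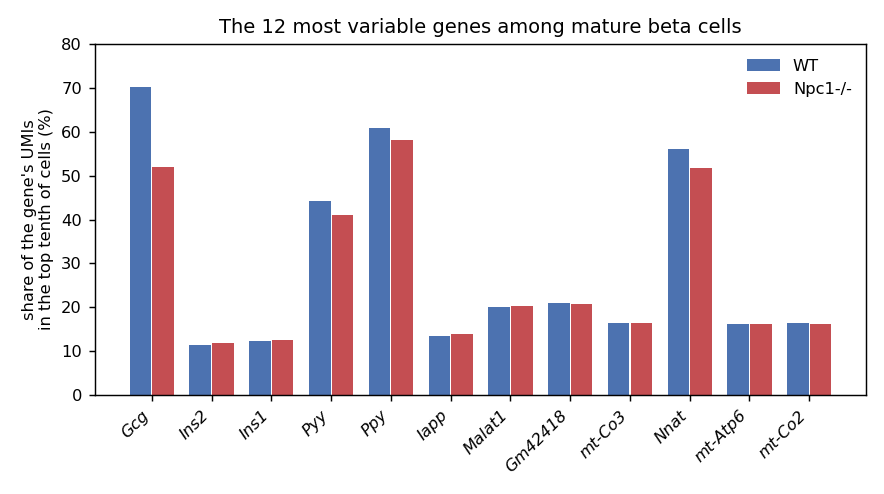
Share of a gene's thinned UMIs held by the top 10% of mature β cells (y axis, %), for the 12 genes with the highest variance over mean (x axis) and with 1 bar per library. The top 10% held 70.1% (WT) and 52.0% (*Npc1*-/-) of the UMIs of *Gcg*, 60.8% and 58.2% of those of *Ppy* and 56.1% and 51.6% of those of *Nnat*, while *Ins2* lay near an even spread (11.5% in WT).

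In the comparison of genotypes the UMIs of all mature β cells of a library were summed and expressed as CPM, and log2 ratios of *Npc1*-/- over WT are given relative to the median gene, which itself shifted by 0.07. *Npc1* was lower as the label states, with 152 UMIs (5.61 CPM) in WT and 41 UMIs (1.98 CPM) in *Npc1*-/- mature β cells and a log2 ratio of -1.56 (-2.11 to -1.07). UMIs of *Npc1* were found in 131 and 39 barcodes, so transcripts of the gene were reduced and not absent in the *Npc1*-/- library. Of 8581 genes tested, at 5 CPM or more in either library, 153 (1.78%) were past 1.5-fold higher and 151 (1.76%) past 1.5-fold lower in the *Npc1*-/- library. On plain CPM, without centring on the median gene, the counts were 240 and 110. The 5th and 95th percentiles of all genes lay at -0.40 and 0.43. The counts of the lists below are read against these shares.

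The insulin genes themselves were at like levels. *Ins1* had 173169 CPM in WT and 172063 CPM in *Npc1*-/- mature β cells and *Ins2* 371030 and 369015 CPM, with log2 ratios of -0.08 each. *Iapp* had 47235 and 45538 CPM (-0.12). Of the genes that chose the members, *Ucn3* had 300 and 258 CPM (-0.28, -0.33 to -0.23) and *Mafa* 294 and 336 CPM (0.13, 0.08 to 0.17). As the rule set a lower limit on the sum of both, these values are a description only. *Slc2a2* had 302 and 261 CPM (-0.28, -0.33 to -0.23). *Trpm5* had 152 and 113 CPM (-0.50, -0.57 to -0.43), and its ratio was below 0 in PP-rich (-0.88), low-marker (-0.69), alpha (-1.76) and endothelial cells (-0.89) too, the last with few UMIs each. None of these genes passed 1.5-fold in mature β cells.

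A further pair of genes that were high in mature β cells did pass it. *Tmigd3*, a membrane protein with an immunoglobulin domain, had 42.4 CPM in WT and 24.7 CPM in *Npc1*-/- mature β cells (-0.85). *Prss53* had 206 and 131 CPM (-0.72, -0.79 to -0.66). Among the 12 genes at 20 CPM or more that were highest against PP-rich cells, these were the only ones past 1.5-fold lower, and *Tnr*, the gene of the matrix protein tenascin-R, was the only one past 1.5-fold higher (23.4 and 39.2 CPM, 0.68). *Cox6a2*, under that limit on CPM in the *Npc1*-/- library, is described with oxidative phosphorylation.

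Transcription factors and secretory genes of the β cell lay mostly near the median gene. Of 23 β cell transcription factor genes, 1 was past 1.5-fold higher and none lower, with a median log2 ratio of 0.04. The member past the limit was *Myt1*, a zinc finger factor of endocrine cells (14.0 and 22.1 CPM, 0.59). *Nkx6-1*, which keeps β cell identity, had 224 and 202 CPM (-0.22), and *Pdx1* 145 and 135 CPM (-0.17). Of 20 genes of prohormone processing and granule cargo, 1 was higher (*Vgf*, a granin-like precursor, 3.69 and 6.62 CPM) and 1 lower (*Nucb2*, the nesfatin precursor, 114 and 73.6 CPM). *Chga*, the granule protein chromogranin A, had 4015 CPM in WT and 6061 CPM in *Npc1*-/- mature β cells, under the limit at 0.53 relative to the median gene and past it at 0.59 on plain CPM. It was shifted alike in PP-rich (0.52) and low-marker cells (0.59). None of 26 exocytosis genes (median 0.14) and none of 17 receptor genes (median 0.01) was past 1.5-fold. Of 23 ion channel genes 2 were higher, *Trpm2* (3.07 and 5.75 CPM) and the sodium channel gene *Scn8a* (198 and 249 UMIs), with a median of 0.21. *Abcc8*, the sulphonylurea receptor of the KATP channel, had 177 and 227 CPM (0.30). Of 17 glucose sensing genes 1 was lower, the glycolytic enzyme gene *Pgk1* (62.3 and 42.6 CPM), with a median of -0.22.

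Genes of protein folding in the endoplasmic reticulum (ER) lay almost all on 1 side. The ER folds proinsulin with the help of chaperones and disulphide isomerases, and many of their promoters carry the ER stress response element, to which ATF6 and XBP1 bind as part of the unfolded protein response. Of 31 genes tested, 29 lay below the median gene and 7 were past 1.5-fold lower in *Npc1*-/- mature β cells (*Hspa5*, *Pdia4*, *Pdia6*, *Calr*, *Dnajb11*, *Sdf2l1*, *Creld2*), with none higher and a median log2 ratio of -0.37, against -0.31 in PP-rich, -0.24 in low-marker, -0.08 in alpha and -0.11 in endothelial cells. To show what some of these genes share, the 250 bases before the RefSeq start of 4 of them are printed from the strand of the gene, 5′ to 3′ (RefSeq, GRCm38.p6), with matches to the letters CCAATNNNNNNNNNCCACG on either strand in capitals. The windows lie at chr2:34771840-34772089 (plus strand), chr12:17266339-17266588 (plus), chr8:84846932-84847181 (minus) and chr15:88819396-88819645 (plus).
Hspa5: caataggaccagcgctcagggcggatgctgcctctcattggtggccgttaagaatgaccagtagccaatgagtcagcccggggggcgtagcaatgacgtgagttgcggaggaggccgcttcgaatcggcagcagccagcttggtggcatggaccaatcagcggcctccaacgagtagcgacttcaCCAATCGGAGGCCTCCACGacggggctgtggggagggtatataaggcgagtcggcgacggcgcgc
Pdia6: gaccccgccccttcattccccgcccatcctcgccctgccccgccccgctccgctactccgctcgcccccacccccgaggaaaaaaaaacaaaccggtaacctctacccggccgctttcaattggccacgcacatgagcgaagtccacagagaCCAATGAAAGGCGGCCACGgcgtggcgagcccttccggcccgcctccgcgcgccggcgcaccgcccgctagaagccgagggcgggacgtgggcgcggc
Calr: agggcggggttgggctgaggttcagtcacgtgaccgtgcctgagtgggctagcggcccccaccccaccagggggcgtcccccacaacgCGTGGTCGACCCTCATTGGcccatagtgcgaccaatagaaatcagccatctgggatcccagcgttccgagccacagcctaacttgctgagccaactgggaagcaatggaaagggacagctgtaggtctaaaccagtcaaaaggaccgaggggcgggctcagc
Creld2: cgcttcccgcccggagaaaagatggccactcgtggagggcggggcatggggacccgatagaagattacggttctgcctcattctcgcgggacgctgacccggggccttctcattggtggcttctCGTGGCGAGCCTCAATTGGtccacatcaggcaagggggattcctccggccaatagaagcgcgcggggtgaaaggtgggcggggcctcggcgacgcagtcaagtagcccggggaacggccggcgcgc
These letters were found in 37 (0.113%) of all 32851 windows of this length. Of the 25 list genes with a window, 7 held a match (*Hspa5*, *Hsp90b1*, *Pdia6*, *Calr*, *Canx*, *Dnajc3*, *Creld2*), and 4 of these were among the 7 genes past 1.5-fold lower. The match lay 47 to 65 bases before the start in *Hspa5* and 80 to 98 in *Pdia6*, and read on the reverse strand 144 to 162 in *Calr* and 108 to 126 in *Creld2*. The other 3 were *Hsp90b1* (-0.36), *Dnajc3* (-0.40) and *Canx* (0.17). A match is a description of the letters and not of a bound site.

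The largest of these differences in abundant genes were those of foldases and chaperones. *Hspa5*, the chaperone BiP, had 705 CPM in WT and 492 CPM in *Npc1*-/- mature β cells (-0.59, -0.62 to -0.55). *Pdia6*, a disulphide isomerase, had 347 and 201 CPM (-0.86, -0.91 to -0.80), and *Sdf2l1*, a partner of BiP, 207 and 115 CPM (-0.91, -0.98 to -0.85). *Calr*, the lectin chaperone calreticulin, had 427 and 279 CPM (-0.68), and *Creld2* 71.8 and 42.5 CPM (-0.83). *Fkbp11*, a prolyl isomerase of the ER that was outside the list, had 83.7 and 43.0 CPM (-1.03, -1.14 to -0.92). Its ratio was -0.69 in PP-rich, -0.48 in low-marker, -0.07 in alpha and -0.37 in endothelial cells. In the integrated stress response list, 11 of 13 genes lay below the median gene and 1, *Ddit4*, was past 1.5-fold lower (10.9 and 6.28 CPM). *Atf4*, its central transcription factor, had 91.1 and 76.9 CPM (-0.31), and the median was -0.31.

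Immediate early and heat shock genes, which respond to dissociation of a tissue, were lower in *Npc1*-/- mature β cells. Of 22 genes tested, 12 were past 1.5-fold lower and none higher, with a median of -0.83, against -0.66 in PP-rich, -0.61 in low-marker, -0.77 in alpha and -0.23 in endothelial cells. *Jun* had 114 CPM in WT and 31.7 CPM in *Npc1*-/- mature β cells (-1.91), *Fosb* 27.6 and 6.42 CPM (-2.17), and the constitutive chaperone gene *Hspa8* 706 and 455 CPM (-0.70). *Fos* (103 and 35.5 CPM) and *Hspa1a* (70.1 and 16.1 CPM), the genes of the rule, had -1.60 and -2.19 even though the rule capped both. Only 306 of the WT members (35.6%) but 462 of the *Npc1*-/- members (71.5%) had *Fos*+*Hspa1a* under 50 CPM. Among these alone, 8 of 20 immediate early and heat shock genes were still past 1.5-fold lower and 1 was higher (median -0.47), and 5 of the 7 ER folding genes were past 1.5-fold lower (median -0.35). Of the genes higher in all members, 2 of the 4 of cholesterol synthesis and uptake and 2 of the 3 of the ChREBP response remained past 1.5-fold there (medians 0.40 and 0.14). In the same barcodes *Pdia6* was at -0.83 and *Hspa5* at -0.49. Whether handling of the tissue had a part in the other differences was not tested.

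Cholesterol genes were on the other side. Cells make cholesterol by a chain of enzymes under the control of SREBP2 and store excess cholesterol as esters that *Soat1* forms at the ER. Of 23 genes of cholesterol synthesis and uptake, 19 lay above the median gene and 4 were past 1.5-fold higher in *Npc1*-/- mature β cells, with none lower and a median of 0.29. The median was 0.29 in PP-rich, 0.30 in low-marker and 0.38 in alpha cells and -0.06 in endothelial cells. *Lss*, which closes the sterol rings, had 7.13 CPM in WT and 12.2 CPM in *Npc1*-/- mature β cells (0.70, 0.43 to 0.98), *Hsd17b7* 3.40 and 6.52 CPM (0.87), and *Insig1*, the retention factor of the SREBP complex, 22.5 and 36.2 CPM (0.62, 0.46 to 0.78). *Hmgcs1*, the synthase at the start of the pathway, lay at the limit with 30.7 and 48.3 CPM (0.58), and was the only one of 16 list genes with a window that held the sterol regulatory element TCACNCCAC, which 1.05% of all windows held on either strand. *Soat1* itself had the highest ratio among genes at 20 CPM or more in either library that kept their side under every definition of the members. It had 269 UMIs (9.94 CPM) in WT and 506 UMIs (24.4 CPM) in *Npc1*-/- mature β cells, found in 26.0% and 48.3% of barcodes, with a log2 ratio of 1.23 (1.01 to 1.45). Its ratio was 0.87 in PP-rich, 0.69 in low-marker, 0.72 in alpha and 0.17 in endothelial cells. Of 12 genes of cholesterol export and storage, *Soat1* was the only one past 1.5-fold higher and *Npc1* the only one lower. The exporter gene *Abca1* had 30.6 and 44.6 CPM (0.47), and *Npc2*, the lysosomal partner of *Npc1*, 100.1 and 127 CPM (0.27).

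Lysosomal genes as a whole did not pass the limit. Of 46 lysosome genes and 16 proton pump genes, none was past 1.5-fold in either direction, with medians of 0.09 and -0.03. *Psap*, the prosaposin gene, had 256 and 290 CPM (0.11). Among 28 mitophagy genes 1 was higher, the autophagy receptor gene *Optn* (4.84 and 7.82 CPM, 0.62, 0.28 to 0.97), with a median of 0.00.

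*Txnip* and other genes that glucose switches on through the factor ChREBP (*Mlxipl*) were higher in part. Of 14 tested, 3 were past 1.5-fold higher in *Npc1*-/- mature β cells and none lower, with a median of 0.12. *Txnip*, which binds thioredoxin and limits glucose uptake, had 967 UMIs (35.7 CPM) in WT and 1282 UMIs (61.9 CPM) in *Npc1*-/- mature β cells, and was found in 51.0% and 65.6% of barcodes (log2 0.72, 0.60 to 0.85). *Elovl6*, a fatty acid elongase, had 7.90 and 14.6 CPM (0.82), and *Arrdc4*, an arrestin-like relative of *Txnip*, 3.91 and 6.28 CPM (0.61, found in few molecules). The ratio of *Txnip* was larger in PP-rich (1.34) and low-marker cells (1.77) and near 0 in alpha (-0.16) and endothelial cells (0.17). Along *Ucn3*+*Mafa* the libraries converged. *Txnip* had 90.8 CPM in WT and 358 CPM in *Npc1*-/- barcodes with under 100 CPM, and 30.6 and 35.1 CPM at 1000 or more. The 250 bases before the start of *Txnip* (chr3:96557707-96557956, plus strand) are printed for the paired letters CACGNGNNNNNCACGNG of the carbohydrate response element, to which ChREBP binds, here in capitals.
Txnip: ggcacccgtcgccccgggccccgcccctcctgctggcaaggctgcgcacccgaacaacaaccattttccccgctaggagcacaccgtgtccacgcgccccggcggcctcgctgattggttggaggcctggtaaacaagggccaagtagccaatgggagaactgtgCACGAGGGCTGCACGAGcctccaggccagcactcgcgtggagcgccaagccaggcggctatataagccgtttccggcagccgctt
The match lay 69 to 85 bases before the start, and 15 (0.0457%) of the 32851 windows held one on either strand. *Txnip* was the only one of 12 list genes with a window that did.

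Genes of oxidative phosphorylation were shifted slightly and to 1 side. Of 78 nuclear-encoded subunits, 68 lay below the median gene in *Npc1*-/- mature β cells and 2 were past 1.5-fold lower, with a median of -0.13. Over the alternatives this median ran from -0.15 to -0.06, and its size and the count below 0 depend on the choice of zero. The median was -0.08 in PP-rich and -0.07 in low-marker cells, 0.08 in alpha cells and 0.02 in endothelial cells. *Cox6a2*, a subunit of cytochrome c oxidase otherwise typical of muscle, was by far the lowest, with 900 UMIs (33.2 CPM) in WT and 196 UMIs (9.47 CPM) in *Npc1*-/- mature β cells (-1.88, -2.11 to -1.66). It was found in 372 WT (43.3%) and 133 *Npc1*-/- (20.6%) members and in 0.447% and 0.220% of endothelial cells. Its ratio was -3.63 in PP-rich, -2.04 in low-marker and -0.98 in alpha cells. *Uqcrc1* (91.3 and 64.1 CPM, -0.58), *Uqcrc2* (-0.48) of complex III and *Atp5b* of the ATP synthase (345 and 248 CPM, -0.54) stayed under the limit, and *Cox4i1* (-0.10) and *Cox8a* (-0.06) lay near the median gene. The 13 mitochondrially encoded genes had a median of 0.07 and none was past 1.5-fold. In the comparison within libraries, *Cox6a2* was also higher in mature than in PP-rich cells, with a log2 ratio of 2.92 in WT and 4.68 in *Npc1*-/-. The ratios of *Cox6a2* that use *Npc1*-/- PP-rich cells rest on few UMIs there.

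**Figure D4:**
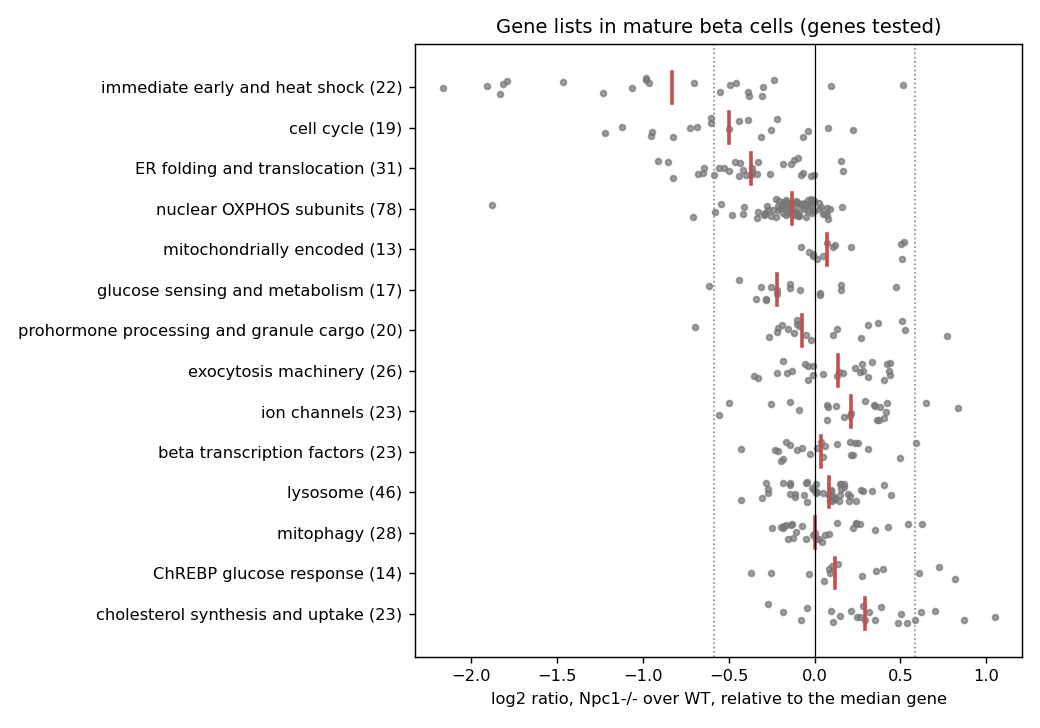
Log2 ratio of *Npc1*-/- over WT in mature β cells relative to the median gene (x axis) for the gene lists (y axis), with 1 point per gene and a mark at the median of the list. The medians lay furthest from 0 for immediate early and heat shock genes (-0.83), cell cycle genes (-0.50) and ER folding genes (-0.37) on the low side and for cholesterol synthesis genes (0.29) on the high side.

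Cell cycle genes were lower in the summed UMIs of *Npc1*-/- mature β cells. Of 19 tested, 9 were past 1.5-fold lower and none higher, with a median of -0.50, against -0.10 in PP-rich, -0.43 in low-marker and 0.09 in alpha cells. *Cdk1*, the kinase that drives mitosis, had 16.4 CPM in WT and 7.34 CPM in *Npc1*-/- mature β cells (-1.22), and *Ube2c*, which helps to end mitosis, 27.4 and 14.9 CPM (-0.95). *Ube2c* was found in only 43 WT (5.01%) and 36 *Npc1*-/- (5.57%) members, a share that was not lower in the *Npc1*-/- library. Of its UMIs, 19.2% and 25.9% came from 1 barcode. *Cdk1* was found in 7.68% and 5.88% of members, *Top2a* in 6.29% and 5.88% and *Birc5* in 5.59% and 3.41%. In members with no UMI of the 5 proliferation markers, a choice that takes out cells by genes of this list, 9 cell cycle genes were tested, none was past 1.5-fold and the median was -0.10.

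Most of the genes that β cells repress were scarce in both libraries. Of 30 disallowed genes, which other tissues use and β cells repress, 3 reached 5 CPM. *Ldha*, the lactate dehydrogenase of other tissues, had 37 UMIs in WT and 20 in *Npc1*-/- mature β cells (-0.55, -1.43 to 0.25) and was found in 1.86% and 1.70% of members, against 87.2% and 89.6% of endothelial cells. *Oat*, an enzyme of ornithine metabolism, was past 1.5-fold lower (12.7 and 7.97 CPM, -0.74). *Aldh1a3*, a retinaldehyde dehydrogenase that marks dedifferentiated β cells, had 7 UMIs in 6 WT and 27 UMIs in 20 *Npc1*-/- members (2.19, 1.03 to 3.71), below the limit of 5 CPM. *Neurog3*, the factor of endocrine progenitors, had 9 and 11 UMIs. Of 13 immature and neonatal genes tested, 1 was past 1.5-fold higher (*Txnip*) and 1 lower. The lower one was the neuropeptide gene *Npy*, with 221 UMIs in 23 WT members and 17 UMIs in 7 *Npc1*-/- members. Of 14 genes tested that the study names for these libraries, and which are no independent evidence for that reason, 2 were past 1.5-fold higher (*Txnip* and *Optn*) and 1 lower (*Cox6a2*), with a median of -0.19.

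Some genes with large ratios belonged to none of the lists above. *Rnase4* and *Ang*, which encode secreted ribonucleases, had 61.4 and 134 CPM (1.06, 0.97 to 1.15) and 18.9 and 34.2 CPM (0.79, 0.62 to 0.95). They overlap on the plus strand, at chr14:51091077-51106151 and chr14:51091150-51102009, and how UMIs were divided between them was not tested. The window before the RefSeq start of *Ang* (chr14:51090827-51091076) is also 1 of the 2 windows of *Rnase4*. It is printed to show this shared stretch, with no motif marked in it.
Ang: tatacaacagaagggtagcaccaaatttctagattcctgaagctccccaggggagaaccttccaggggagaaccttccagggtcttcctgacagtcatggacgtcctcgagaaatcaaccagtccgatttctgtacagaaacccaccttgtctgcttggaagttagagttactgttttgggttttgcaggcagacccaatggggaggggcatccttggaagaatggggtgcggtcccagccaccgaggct
Both genes were also higher in PP-rich (1.31 and 1.20) and low-marker cells (0.97 and 0.86), while alpha cells had ratios of 0.08 and 0.19. *Gm47283*, a gene model that the annotation places at chrY:90784738-90816464, had 26.3 and 6.33 CPM (-2.12) in these libraries of female mice. Its ratios were -1.94, -2.19, -2.20 and -1.41 in PP-rich, low-marker, alpha and endothelial cells. It was lower in the *Npc1*-/- library in every class compared. The antigen presentation list had 1 gene of 13 higher (*B2m*, 6.50 and 10.6 CPM), the glutathione list 1 of 20 (*Gstp1*, 8.83 and 15.5 CPM), and the lists of imprinted growth genes (10), apoptosis genes of the *Bcl2* family (14) and zinc and metallothionein genes (9) none in either direction.

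**Figure D5:**
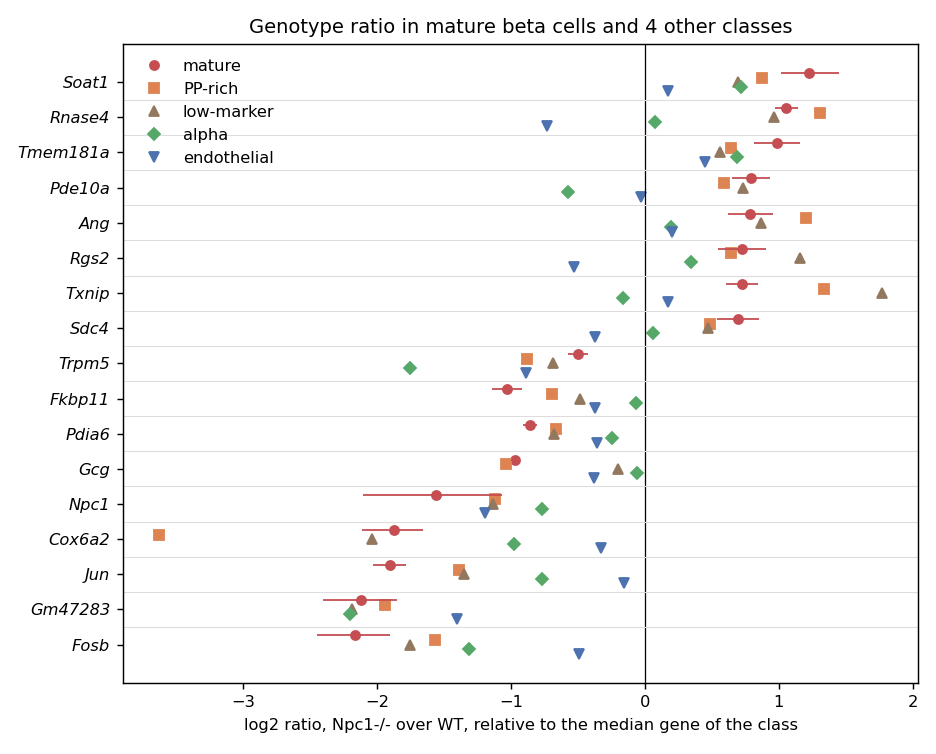
Log2 ratio of *Npc1*-/- over WT relative to the median gene of the class (x axis) for named genes (y axis) in mature β cells and 4 other classes, with 95% intervals for counting error on mature β cells. *Gm47283* was lower in all 5 classes, *Pdia6* was at -0.86, -0.67 and -0.68 and *Fkbp11* at -1.03, -0.69 and -0.48 in mature, PP-rich and low-marker cells, and *Txnip* was at 0.72, 1.34 and 1.77 in these, -0.16 in alpha and 0.17 in endothelial cells.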

How the data were processed

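Islet cells of 2 libraries (1 WT, 1 *Npc1*-/-) were analysed. The matrices that the authors deposited hold unnormalized counts of UMIs, which per the labels came from Cell Ranger 3.1.0 and mm10, before the study's own filters and its steps in Seurat 4.0.3. The labels and the study's methods name different versions of the 10x reagents. A kept barcode had over 1000 genes, less than 50000 UMIs, and shares of mitochondrial UMIs under 10% and of haemoglobin UMIs of at most 0.1%. Gene identifiers were placed with GENCODE M21.

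UMIs were summed over the members of each library and expressed as CPM. Log2 ratios used 0.5 added counts, genes at 5 CPM or more in either group, and the median gene as zero, a choice made with earlier results known. A gene counted as past the limit at 1.5-fold, and the 10 genes of the rule were left out of counts. Intervals are exact (Clopper-Pearson or conditional binomial, 95%). With 1 library per genotype no test was made. Doublets were called with Scrublet (scanpy 1.11.5, expected rate 0.8% per 1000 barcodes) and removed only in an alternative. The steps were tested on simulated data. Python 3.11.15 and edgeR 4.0.16 (TMM factor only) were used.

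The members, gene lists and markers were chosen with earlier results of these data known. Named genes were those of the rule, the markers, *Npc1*, the genes the study names, the 12 highest and 12 lowest of each comparison at 20 CPM or more (for the genotypes, only genes on 1 side of the median gene under every definition of the members), the 12 most variable genes, and up to 4 genes of each list. *Creld2*, *Hsp90b1*, *Dnajc3*, *Canx* and *Hmgcs1*, and further values along *Ucn3*+*Mafa*, were named after their values were seen. Alternatives covered the definition of the members, the scaling, the limits on CPM and the fold.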

Additional observations from a re-analysis of the deposited data

Results flagged for a closer look

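*Ube2c* stood on opposite sides in mature β cells and alpha cells, with log2 ratios of *Npc1*-/- over WT of -0.95 and 0.68. The difference between the classes was not tested, since each has 1 library per genotype.

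Barcodes outside the quality limits also held cells of this kind. Among barcodes of 50000 or more UMIs, 95 in the WT and 169 in the *Npc1*-/- library met every other limit for mature β cells. They had 153.8 and 109 CPM of *Trpm5*, 33.1 and 12.2 CPM of *Cox6a2*, 9.37 and 25.3 CPM of *Soat1* and 32.6 and 58.9 CPM of *Txnip*. Among barcodes with 10% or more mitochondrial UMIs, 35 in the WT and 25 in the *Npc1*-/- library met the other limits.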

How the results depend on the processing

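No paired analysis was possible because each genotype has 1 library. The share of mature β cells was lower in the *Npc1*-/- library under each alternative, with ratios from 0.689 (under 5% mitochondrial UMIs) to 0.815 (of all kept barcodes). Of 2327 values of 179 named genes under 13 alternatives, 1950 moved by less than their counting interval, and 81 lay on the other side of 0 from the value reported, 11 of them for genes past 1.5-fold and 70 for 33 genes under it. Of 338 list medians, 15 lay on the other side of 0, for 6 lists whose medians were within 0.14 of it. The genes past 1.5-fold that changed side were *Gcg*, at 0.026 with doublets removed and 0.024 with no upper limit on UMIs, *Plvap*, at 0.22 with doublets removed, 0.52 under 5% mitochondrial UMIs, 0.21 with *Fos*+*Hspa1a* under 50 CPM, 0.88 with no cycling UMI and 0.25 with no upper limit, and *Birc5*, *Cdk1*, *Top2a* and *Ube2c*, at 0.26 with no cycling UMI, where no UMIs of these genes are left by construction. For *Gcg* and *Plvap* the cause was not tested. The alternatives on *Fos*+*Hspa1a*, cycling UMIs and the upper limit were added after seeing the data. The TMM factor was planned for the counts of genes but not for the values of single genes.

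Counts of genes depended on the limits. For *Npc1*-/- over WT, genes higher and lower were 477 and 455 at 1 CPM, 39 and 41 at 20 CPM and 18 and 33 at 2-fold, and 240 higher on plain CPM. For mature over PP-rich cells they were 260 and 538, 61 and 61, and 45 and 84, with 88 and 392 on plain CPM. For mature over low-marker cells they were 114 and 639, 14 and 54, and 10 and 132, with 76 higher at *Ucn3*+*Mafa* of 200 CPM, 26 and 105 at 500, and 25 and 157 after thinning. Of the 153 and 151 genes past 1.5-fold between genotypes, 95 and 108 remained so among members under 5% mitochondrial UMIs, where 180 and 164 passed, and 105 and 107 with *Fos*+*Hspa1a* under 50 CPM, where 221 and 219 passed. Over the 10 other definitions, 95 to 150 and 94 to 146 remained. Depth limits genes of few UMIs, such as *Aldh1a3* with 7 and 27 UMIs and an interval of 1.03 to 3.71.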

Other observations

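Further genes with large ratios between the genotypes in mature β cells were *Pde10a*, *Rgs2* and *Sdc4* on the high side. *Pde10a*, a phosphodiesterase of cyclic nucleotides, had 24.7 CPM in WT and 44.9 CPM in *Npc1*-/- mature β cells (log2 0.79), *Rgs2*, which damps signals through G proteins, 16.7 and 29.0 CPM (0.73), and *Sdc4*, the cell surface proteoglycan syndecan-4, 22.0 and 37.3 CPM (0.70). *Pde10a* was at 0.60 in PP-rich and -0.57 in alpha cells. *Tmem181a* (0.98), *Tceal3* (0.80) and *Dusp26* (0.71) were higher too. On the low side were the immediate early genes *Ier2* (-1.82), *Dusp1* (-1.79) and *Junb* (-1.24), the heat shock cochaperone gene *Dnajb1* (-1.07) and *Rflna* (-0.98), which organises actin filaments.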
